A study of Mus musculus with 7 samples.

Results

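The imprinted growth genes H19, Igf2, Igf2r, Dlk1, Meg3, Peg3, Mest, Plagl1, Cdkn1c and Grb10 are 10 of the 35715 gene names on the array, and they were represented by 25 of its 55681 non-control probes. They were chosen by name, with the genotype difference of these animals already known, so their genotype differences are given as a description and without a test. Whole liver of 4-week-old C57BL/6J mice was hybridised, 1 animal per array, on a mouse expression array with a single dye and probes of 60 bases. Both genotypes carry floxed Rbpj alleles, Rbpj encoding the DNA-binding factor through which Notch receptors act. In the 3 Rbpj-/- mice (mice 1 to 3) an AlfpCre transgene deletes the gene, whereas the 4 Rbpj+/+ mice (mice 1 to 4) lack the transgene. AlfpCre acts in the epithelial lineage of the embryonic liver, from which hepatocytes and bile duct cells come, so stromal, endothelial and blood cells in the sample should keep Rbpj. The mice were untreated, and the livers of the Rbpj-/- mice are labelled as cholestatic and those of the Rbpj+/+ mice as free of cholestasis, so deletion and cholestasis cannot be told apart.

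An imprinted gene is read from the copy inherited from the mother or from the father, and the parental copies differ in DNA methylation set in the germ line. Many imprinted genes act on growth before birth: paternally read genes such as Igf2, Dlk1, Peg3, Mest and Plagl1 tend to favour it and maternally read genes such as H19, Igf2r, Meg3, Cdkn1c and Grb10 tend to restrain it. In mouse liver H19, Igf2 and several of their kind are abundant in the fetus and are shut down in the weeks after birth, together with the fetal serum protein Afp.

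Each value below is a log2 intensity after the 75th percentile of its array was subtracted, so that 0 is the 75th percentile and a rise of 1 is a 2-fold change. Values follow the order of the mice, 1 to 4 for Rbpj+/+ and 1 to 3 for Rbpj-/-. A probe was tested when every array of either genotype read it well above background. Over the array 24547 probes were tested and 8241 passed an adjusted p of 0.1 in limma (33.6%), 3522 higher and 4719 lower in Rbpj-/- livers. This split became 3873 higher and 3678 lower after quantile normalization, 4315 and 4078 when the percentile was taken over probes detected on all arrays, and 3848 and 3616 with the series' own processed values. Between 41.1% and 64.9% of probes stood well above background on an array, with the highest shares in Rbpj+/+ mouse 2 and Rbpj-/- mouse 1. The 4 Rbpj+/+ arrays fill the first row of the slide and the 3 Rbpj-/- arrays the second, so row and genotype cannot be told apart. The targeted gene lay between 0.29 and 0.97 in the Rbpj+/+ livers and between -0.78 and -0.35 in the Rbpj-/- livers, a log2 difference of -1.13 (SE 0.23, limma adjusted p = 0.0115), with no overlap, and whether its probe lies in the deleted part of the gene is not given in the sources used here. In a piece of whole liver, fewer cells of a type and less RNA per cell cannot be told apart.

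H19, a maternally read noncoding RNA that is among the most abundant transcripts of the fetal liver and the host of a microRNA, had the largest differences of the 8 genes that could be tested. Its 7 probes are given here from the 5′ to the 3′ end of the gene, in the sense of the transcript on the minus strand of build mm9, because 6 of them read the RNA and the 5′-most did not.

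H19 probe 1, chr7:149762417-149762476: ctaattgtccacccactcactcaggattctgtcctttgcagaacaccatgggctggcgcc
H19 probe 2, chr7:149762173-149762232: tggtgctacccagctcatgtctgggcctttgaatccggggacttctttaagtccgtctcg
H19 probe 3, chr7:149762113-149762172: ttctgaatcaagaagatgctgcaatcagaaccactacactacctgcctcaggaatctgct
H19 probe 4, chr7:149761957-149762016: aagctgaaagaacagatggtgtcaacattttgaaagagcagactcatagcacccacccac
H19 probe 5, chr7:149761756-149761815: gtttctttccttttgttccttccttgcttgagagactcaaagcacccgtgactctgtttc
H19 probe 6, chr7:149761693-149761752: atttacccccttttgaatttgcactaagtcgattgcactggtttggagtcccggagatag
H19 probe 7, chr7:149761492-149761551: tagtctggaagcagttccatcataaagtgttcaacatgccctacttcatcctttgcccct

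The 6 probes that read H19 span 741 bases, chr7:149761492-149762232, and none of the 25 member probes shared a stretch of 20 bases with a probe of another name. Probe 1 lies 184 bases upstream of probe 2 and was well above background on no array, with values between -5.91 and -3.12. No difference was read from it.

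On H19 probe 7, at the 3′ end, the Rbpj+/+ livers measured 0.99, -0.57, -0.72 and 5.10, and the Rbpj-/- livers 8.06, 8.51 and 9.36. The raw intensities behind these values were 203.9, 57.7, 34.8 and 2569 in the Rbpj+/+ livers and 38010, 47340 and 77440 in the Rbpj-/- livers. Every Rbpj-/- liver was above every Rbpj+/+ liver, and Rbpj+/+ mouse 4 stood far above the other 3. The group means were 1.2 ± 2.71 (SD, n = 4) and 8.64 ± 0.66 (SD, n = 3), a log2 difference of 7.44 (SE 1.24), or 174-fold. Without Rbpj+/+ mouse 4 the difference was 8.74, or 428-fold. Against Rbpj+/+ mouse 4 alone the Rbpj-/- mean was 11.6-fold higher.

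The other 5 probes gave the same order of animals at the top. On probe 6 the Rbpj+/+ livers measured -0.94, -2.36, -3.08 and 3.26 and the Rbpj-/- livers 6.68, 7.18 and 8.32. On probe 5 they measured -0.96, -1.58, -2.36 and 2.82 against 6.13, 6.65 and 7.93. The difference was 8.17 (SE 1.30) on probe 6 and 7.42 (SE 1.09) on probe 5. Nearer the 5′ end, probe 2 was well above background in 2 of 4 Rbpj+/+ livers and probes 3 and 4, like probe 6, in 3 of 4. Their differences were 8.19 (SE 1.29) on probe 2, 6.59 (SE 0.78) on probe 3 and 6.81 (SE 0.85) on probe 4. Rbpj+/+ mouse 4 was the highest Rbpj+/+ liver and Rbpj-/- mouse 3 the highest Rbpj-/- liver on all 6 probes, and the lowest Rbpj-/- liver stood above Rbpj+/+ mouse 4 by at least 2.96 log2 units on each. Without Rbpj+/+ mouse 4 the 6 differences ran from 7.33 to 9.52.

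**Figure D1:**
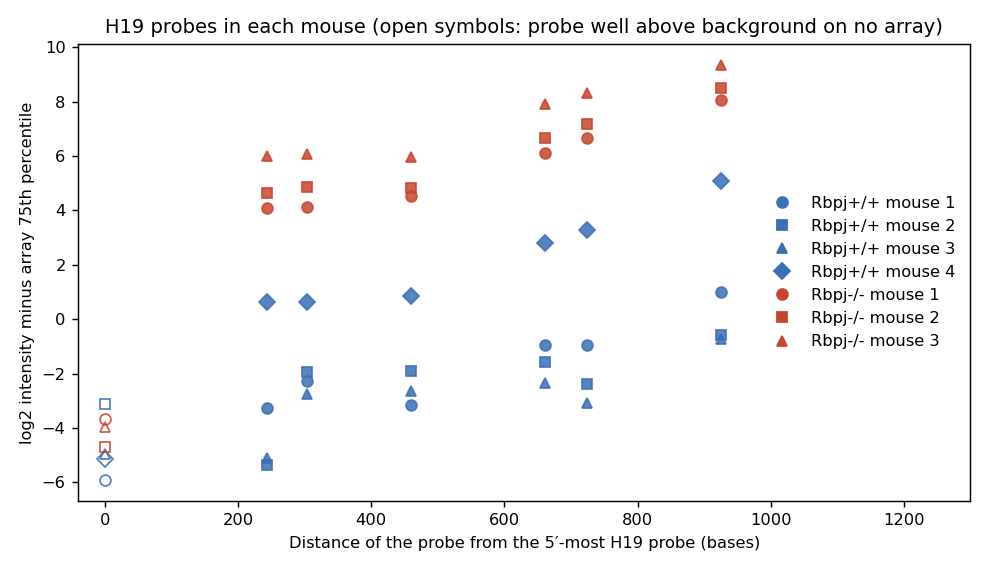
Normalized log2 intensity of the 7 H19 probes (vertical axis) against the distance of each probe from the 5′-most one in bases (horizontal axis), with 1 symbol per animal, blue for Rbpj+/+ and red for Rbpj-/-, and open symbols for the probe that was well above background on no array. On the 6 readable probes the 3 Rbpj-/- livers lie at the top, Rbpj+/+ mouse 4 lies alone between them and the other 3 Rbpj+/+ livers, and on probe 7 these positions correspond to 8.06 to 9.36, 5.10, and -0.72 to 0.99.

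The excess of Rbpj+/+ mouse 4 was set against all tested probes, with values of the controls alone. The set of tested probes still depends on both genotypes. H19 probes 2, 3, 4 and 6 entered it only through the Rbpj-/- arrays, and a probe bright in Rbpj+/+ mouse 4 alone could not enter it. In Rbpj+/+ mouse 4, 12 of the 24547 tested probes were at least 8-fold above the mean of the other 3 Rbpj+/+ livers, and the 4 with the largest excess were all H19 probes: 41.9-fold on probe 6, 36.9-fold on probe 2, 36.8-fold on probe 7 and 21.8-fold on probe 5, controls near background entering as measured. H19 probe 4 ranked 9 with 10.6-fold. Rank 11 was Mirg, a maternally read noncoding RNA of the same imprinted cluster as Meg3, with 8.47-fold. The other 6 probes belonged to Timd2, 2610507I01Rik, Smcr8, Syt10, an intergenic transcript of chromosome 16 and Mtmr7. In the remaining Rbpj+/+ animals the number of probes past the same limit was 9 (mouse 1), 29 (mouse 2) and 2 (mouse 3). The labels give Rbpj+/+ mouse 4 as Rbpj+/+ like the others, and its Rbpj value of 0.81 lay within the range of that group.

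Igf2, the paternally read fetal growth factor that shares enhancers with H19, was read by a single probe at chr7:149839661-149839720, which was well above background on no array. Its values were -5.78, -4.42, -4.74 and -5.01 in the Rbpj+/+ livers and -5.37, -5.14 and -5.63 in the Rbpj-/- livers, with raw intensities between 1.87 and 3.99. Values this dim hold no order, so no difference of Igf2 between genotypes was detectable on these arrays, also not in the livers where H19 was bright.

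Igf2r, the maternally read receptor that carries IGF2 to the lysosome, was well above background on all arrays and was spotted 10 times on each array. It measured 3.0, 2.86, 3.21 and 2.95 in the Rbpj+/+ livers and 3.09, 3.26 and 3.50 in the Rbpj-/- livers, so the genotypes overlapped. The log2 difference was 0.28 (SE 0.19). The 10 spots on an array had an SD of 0.06 to 0.11, below the SD of 0.15 between Rbpj+/+ animals and 0.21 between Rbpj-/- animals.

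Grb10, a maternally read adaptor that damps signalling from the insulin and IGF1 receptors, measured -1.89, -1.53, -1.98 and -2.14 in the Rbpj+/+ livers and -0.25, -1.36 and -1.12 in the Rbpj-/- livers. The groups did not overlap, the gap between them being 0.17, and the log2 difference was 0.97 (SE 0.29), or 1.96-fold. It was 0.64 without Rbpj-/- mouse 1 and fell to 0.13 after normexp background correction. Cdkn1c, a maternally read inhibitor of cyclin-dependent kinases, measured 0.39, 0.76, 0.70 and 0.43 in the Rbpj+/+ livers and 0.40, 0.59 and 1.51 in the Rbpj-/- livers. Only Rbpj-/- mouse 3 exceeded the Rbpj+/+ range: the log2 difference was 0.26 (SE 0.28) with all animals and -0.08 without Rbpj-/- mouse 3.

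Meg3 is a maternally read noncoding RNA and Dlk1 a paternally read transmembrane ligand of the Notch type, and both lie in the same imprinted cluster on chromosome 12. Probes 2 and 3 of the 3 Meg3 probes, numbered from 5′ to 3′, are shown on the plus strand of mm9, because they lie 10060 bases apart and differed in whether they read the RNA.

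Meg3 probe 2, chr12:110799558-110799617: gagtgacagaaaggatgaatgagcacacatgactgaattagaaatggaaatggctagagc
Meg3 probe 3, chr12:110809678-110809737: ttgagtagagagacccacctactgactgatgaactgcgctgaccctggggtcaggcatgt

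Meg3 probe 3 was well above background on all arrays and measured -1.39, -1.09, -1.17 and -0.91 in the Rbpj+/+ livers and 0.52, -0.04 and -0.79 in the Rbpj-/- livers. The Rbpj-/- livers were all higher, with a gap of 0.12 between Rbpj-/- mouse 3 and Rbpj+/+ mouse 4, and the log2 difference was 1.04 (SE 0.30), or 2.05-fold. It was 0.39 after normexp background correction. Among the Rbpj-/- animals the order ran opposite to that of H19, with Rbpj-/- mouse 3 lowest for Meg3 and highest for H19. Meg3 was highest in Rbpj-/- mouse 1, whose array had the highest share of probes well above background. Without that mouse the Meg3 difference was 0.73. Probe 1 was well above background in 0 of 4 Rbpj+/+ and 2 of 3 Rbpj-/- livers and probe 2 in 1 animal of each genotype, and no difference was read from either.

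Both Dlk1 probes were too dim to be tested. The first measured -5.82 to -3.53 in the Rbpj+/+ livers and -5.99 to -3.03 in the Rbpj-/- livers, and the second -5.27 to -4.16 against -4.40 to -3.05. No Rbpj+/+ liver and at most 2 Rbpj-/- livers were well above background on either probe. A difference of Dlk1 was not detectable at this signal.

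Mest, a paternally read protein of the hydrolase fold, was read by 2 probes in its 3′ part. The 3′-most, probe 3, was spotted 10 times and measured 0.24, 0.16, 0.03 and 0.42 in the Rbpj+/+ livers and 1.67, 1.65 and 2.28 in the Rbpj-/- livers. The gap between the groups was 1.23 and the log2 difference 1.65 (SE 0.22), or 3.14-fold, beside an SD of 0.16 between Rbpj+/+ animals and 0.36 between Rbpj-/- animals. Probe 2, 834 bases upstream, measured -0.66, -0.70, -0.64 and -0.46 against 0.22, 0.45 and 0.96, a log2 difference of 1.15 (SE 0.22). Both probes thus put the Rbpj-/- livers higher, by unequal amounts. Probe 1 lies a further 5165 bases upstream and was well above background in no Rbpj+/+ and 2 of 3 Rbpj-/- livers.

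Peg3, a paternally read zinc finger factor, was read by its second probe only. This probe measured -2.27, -1.67, -3.07 and -4.39 in the Rbpj+/+ livers, of which 2 of 4 were well above background, and -1.04, -0.60 and -1.18 in the Rbpj-/- livers. The groups did not overlap and the log2 difference was 1.91 (SE 0.56), or 3.77-fold. It was 1.40 without Rbpj+/+ mouse 4 and 0.38 after normexp background correction.

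Plagl1, a paternally read zinc finger factor that binds near H19, Igf2 and other imprinted genes, had 4 tested probes on chromosome 10, and they disagreed. The 2 upstream probes measured -2.48, -1.30, -2.11 and -1.67 (probe 1) and -2.15, -1.90, -2.76 and -2.55 (probe 2) in the Rbpj+/+ livers. In the Rbpj-/- livers they measured -2.15, -2.76 and -2.84, and -2.62, -2.60 and -2.44. The genotypes overlapped on both, with log2 differences of -0.69 (SE 0.31) and -0.21 (SE 0.24). After normexp background correction both passed as lower (-0.41 and -0.375).

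The 2 downstream Plagl1 probes start 1631 bases further on. Probe 3 measured 1.12, 1.33, 1.39 and 1.0 in the Rbpj+/+ livers and 1.73, 2.18 and 1.82 in the Rbpj-/- livers. Probe 4 measured 0.80, 1.29, 1.04 and 0.73 against 1.51, 2.08 and 1.66. The groups did not overlap on either, with log2 differences of 0.70 (SE 0.20) and 0.79 (SE 0.22). Probes 3 and 4 share a stretch of at least 20 bases with each other and are therefore not independent readings.

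**Figure D2:**
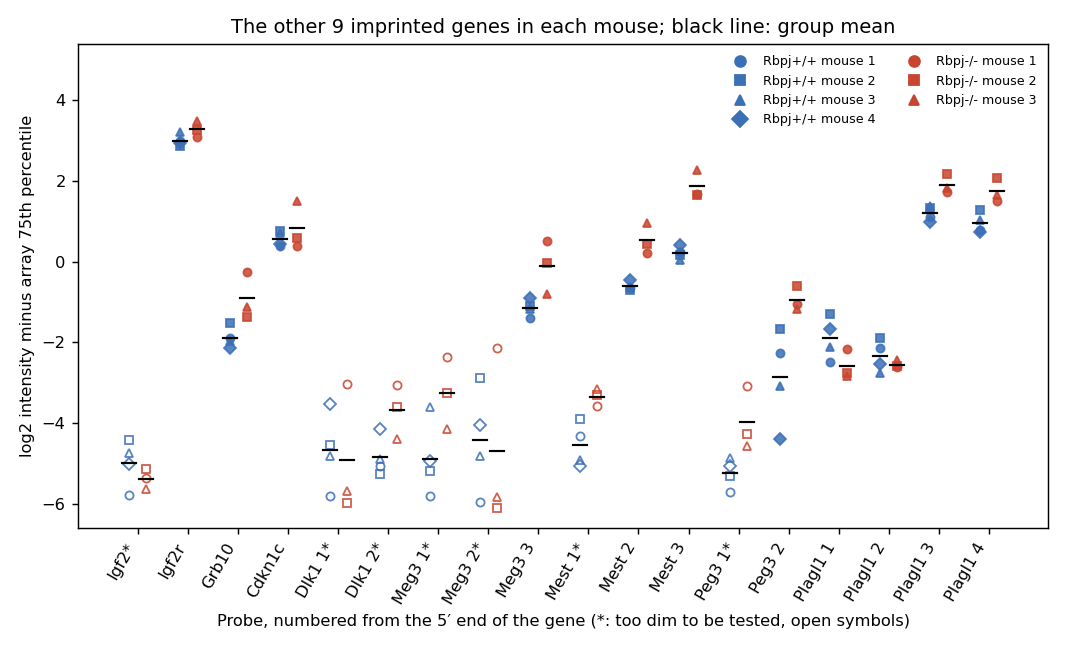
Normalized log2 intensity (vertical axis) of every probe of the 9 members other than H19, numbered from the 5′ end of each gene (horizontal axis), with 1 symbol per animal, blue for Rbpj+/+, red for Rbpj-/-, a black line at each group mean and open symbols for probes too dim to be tested. The Rbpj-/- livers lie wholly above the Rbpj+/+ livers for Grb10, Meg3 probe 3, Mest probes 2 and 3, Peg3 probe 2 and Plagl1 probes 3 and 4, and overlap them for Igf2r, Cdkn1c and Plagl1 probes 1 and 2.

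Of the 25 probes 17 were tested, 11 of them well above background on all 7 arrays, and the other 6 reached the test through the Rbpj-/- arrays alone. Of the 17, 13 passed the adjusted p of 0.1, all of them higher in Rbpj-/- livers, beside 33.6% of all tested probes in either direction. The same 13 had every Rbpj-/- liver above every Rbpj+/+ liver, beside 15.0% of all tested probes. By gene, with its brightest tested probe, 6 of the 8 readable genes passed, beside 34.2% of all 18754 tested genes. Their median log2 difference over the 8 genes was 1.0 beside -0.13 over all tested genes. The members were picked with this contrast in view, so nothing is read from these counts. The genes that passed were the maternally read H19, Meg3 and Grb10 and the paternally read Mest, Peg3 and Plagl1, the last on 2 of its 4 tested probes. No relation to the parental side was tested.

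**Figure D3:**
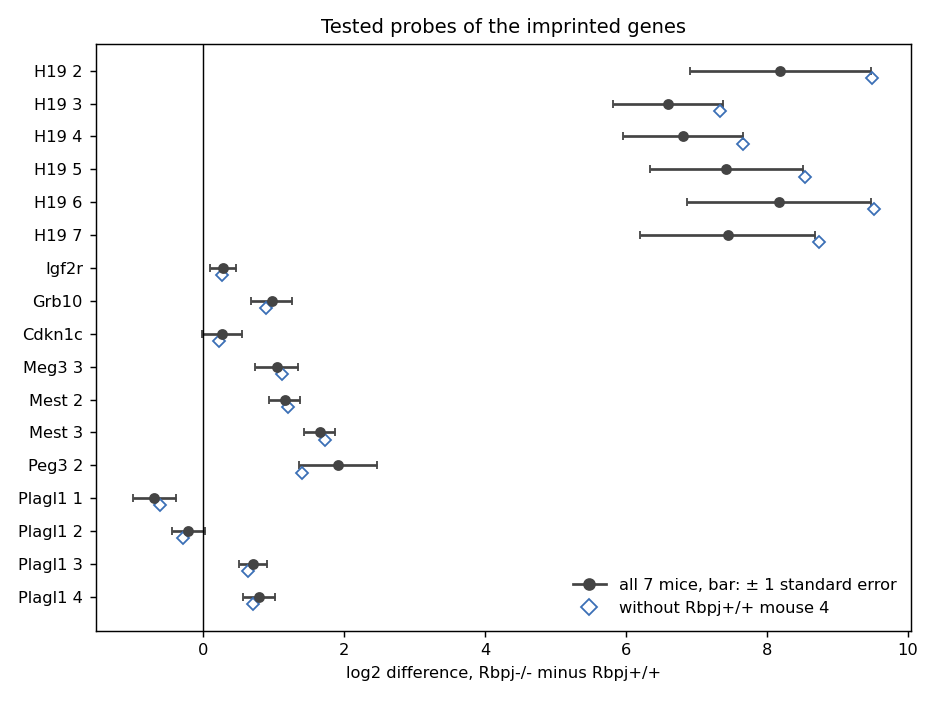
The log2 difference, Rbpj-/- minus Rbpj+/+ (horizontal axis), of the 17 tested probes of the imprinted genes (vertical axis, numbered from the 5′ end), as black points with bars of 1 standard error over all 7 animals and as open blue diamonds without Rbpj+/+ mouse 4. The 6 H19 probes lie between 6.59 and 8.19 and move up by leaving out Rbpj+/+ mouse 4, and the other 11 probes lie between -0.69 and 1.91.

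Most imprinted genes outside these 10 did not pass the test between genotypes, and neither did most tested genes of the array. Whether a listed gene is imprinted in liver was not tested. From a list of 59 further imprinted genes, 56 were on the array and 36 were tested, of which 6 rose, 3 fell and 27 did not pass, or 25.0% called beside 34.2% of all tested genes. The list's median log2 difference was -0.05 beside -0.13 over all tested genes. The largest increases were in Phlda2 and Asb4. Phlda2, a maternally read restrainer of placental growth next to Cdkn1c, measured -3.92, -4.93, -3.87 and -4.15 in the Rbpj+/+ livers, none of them well above background, and -1.87, -0.65 and -1.37 in the Rbpj-/- livers. With Rbpj+/+ values raised to the lowest detected signal of their array the increase was 4.15-fold (limma adjusted p = 0.0014). Asb4, a substrate adaptor of ubiquitin ligases, measured -3.46, -4.60, -2.88 and -2.41 against -0.32, -1.17 and -0.62, a log2 difference of 2.63 (SE 0.47, limma adjusted p = 0.0068). After normexp background correction the log2 differences of Phlda2 and Asb4 were 0.44 and 0.59 (limma adjusted p = 0.085 and 0.0317).

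Sgce (1.49, SE 0.22), Gatm (1.13, SE 0.24), Tnfrsf23 (0.99, SE 0.21) and Impact (0.71, SE 0.20) were the other 4 that rose on the log2 scale. The 3 that fell were Th, the enzyme of catecholamine synthesis (-0.98, SE 0.21), Inpp5f (-0.68, SE 0.21) and Ppp1r9a (-0.65, SE 0.20). Mirg did not pass, with a limma adjusted p of 0.105. Its values were -2.14, -1.22, 0.57 and 2.15 in the Rbpj+/+ livers and 1.26, 1.70 and 4.47 in the Rbpj-/- livers. Rbpj+/+ mouse 4 and Rbpj-/- mouse 3 were the highest of their genotypes in Mirg, as they were in H19, and Rbpj+/+ mouse 4 lay above 2 of the 3 Rbpj-/- livers. Leaving out 1 array ended the calls of Impact (limma adjusted p = 0.114 without Rbpj-/- mouse 2, 0.113 without Rbpj-/- mouse 1), Inpp5f (0.151 without Rbpj-/- mouse 2 and 0.102 and 0.109 without Rbpj-/- mouse 1 and Rbpj+/+ mouse 3) and Ppp1r9a (0.112 to 0.156 without Rbpj+/+ mouse 3 or 4 or Rbpj-/- mouse 1 or 2).

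Of 35 tested genes that are physical neighbours of the 10 genes, 5 rose and 5 fell, or 28.6% called beside 34.2% of all tested genes. Their median log2 difference was -0.04, and 1 of them (Mrpl23) was read by a probe placed on chromosome 2. Several, such as Phlda2, Th, Tnfrsf23, Mirg and Airn, are also counted among the other imprinted genes above. The counts and medians of these lists are therefore not independent. In the chromosome 7 cluster that holds H19, Igf2 and Cdkn1c, Phlda2, Tnfrsf23 and Lsp1, a leukocyte actin-binding protein, rose, the last by 1.36 (SE 0.23, limma adjusted p = 0.00501). In the same cluster Cars, the cysteinyl-tRNA synthetase, fell by 1.27 (SE 0.24, limma adjusted p = 0.00828), and Th fell as above. Next to Igf2r on chromosome 17, Plg, the liver's plasminogen gene, fell by 0.80 (SE 0.20). Airn, the noncoding RNA read through Igf2r on the paternal copy, measured 1.30 to 1.75 in the Rbpj+/+ and 1.05 to 1.54 in the Rbpj-/- livers (limma adjusted p = 0.515). Over 19 settings, between which the probe standing for Airn can change, its log2 difference ran from -0.30 to 1.80. It was called in 1 of them, so its level is not settled by the probe shown.

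Beside Grb10 on chromosome 11, Fignl1, an ATPase of DNA repair, measured -1.18, -1.71, -2.42 and -2.08 in the Rbpj+/+ livers and 1.26, 1.75 and 0.66 in the Rbpj-/- livers. It rose by 3.07 (SE 0.35, limma adjusted p = 0.00118), the largest difference among these neighbours. Ikzf1, a lymphoid factor on the other side of Fignl1, was well above background in no Rbpj+/+ liver. With Rbpj+/+ values raised to the lowest detected signal its increase was 1.37-fold (limma adjusted p = 0.0624). Its genotypes overlapped, the difference turned to -0.13 after normexp background correction (limma adjusted p = 0.538), and the call ended under quantile normalization (0.116), with the series' own processed values (0.117) and with a variance trend in limma (0.133). Near Plagl1, Utrn fell by 0.68 (SE 0.26, limma adjusted p = 0.0903). The tested neighbours of Mest (Copg2 and Cep41) and of Meg3 (Mirg, Wdr25 and Ppp2r5c) did not pass, and no neighbour of Peg3 on the list could be tested. Cep41 was called in 1 and Mirg in 5 of 19 settings. Leaving out 1 array ended the calls of Plg (limma adjusted p = 0.101 without Rbpj-/- mouse 2), Ikzf1 (0.111 to 0.192 without Rbpj+/+ mouse 2 or 4 or Rbpj-/- mouse 1 or 3) and Utrn (0.143 to 0.226 without any mouse but Rbpj+/+ mouse 1).

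Genes of the IGF system, to which Igf2, Igf2r and Grb10 belong, changed in both directions, with Igf1, Igfals and Igfbp3 lower in the Rbpj-/- livers. Of 16 tested genes 3 rose and 5 fell, or 50% called beside 34.2% of all tested genes, with a median log2 difference of -0.27 beside -0.13 over all tested genes. Igf1, the circulating growth factor that the liver makes after birth, measured 7.16, 6.83, 7.06 and 6.85 in the Rbpj+/+ livers and 4.28, 4.05 and 4.65 in the Rbpj-/- livers, and it fell by 2.65 (SE 0.21, limma adjusted p = 0.000266). Igfals, the subunit that holds IGF1 in its large serum complex, fell by 4.58 (SE 0.45, limma adjusted p = 0.000616), from between 2.44 and 3.32 to between -2.62 and -0.59. Igfbp3, the binding protein of the same complex, fell by 1.96 (SE 0.46, limma adjusted p = 0.0181). Igfbp5 and Irs4 also fell, by 1.72 and 1.15.

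Igfbp1, a binding protein of fasting and injury, rose by 2.0 (SE 0.30, limma adjusted p = 0.00322), from between 5.80 and 6.75 to between 7.88 and 8.77. Mmp14, a membrane protease, rose by 1.02 and Igf1r, the receptor of IGF1 and IGF2, by 0.78 (SE 0.24, limma adjusted p = 0.044). Insr, the insulin receptor, did not pass (log2 difference -0.55, limma adjusted p = 0.107). The calls of Igf1r (limma adjusted p = 0.104 to 0.152 without Rbpj+/+ mouse 4 or Rbpj-/- mouse 1 or 2) and Igfbp5 (0.125 to 0.26 without any of 5 mice, all but Rbpj+/+ mouse 2 and Rbpj-/- mouse 1) ended when 1 array was left out.

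Of 8 tested genes for proteins that bind fetal growth mRNAs and for the fetal liver programme, 4 rose and 2 fell, or 75% called beside 34.2% of all tested genes, and without Rbpj-/- mouse 1 the calls numbered 3. Afp, the fetal serum protein, measured 0.54, 0.27, 0.20 and 0.37 in the Rbpj+/+ livers and 2.72, 4.16 and 2.86 in the Rbpj-/- livers, and it rose by 2.90 (SE 0.34, limma adjusted p = 0.00128). Rbpj+/+ mouse 4 lay within the range of the other Rbpj+/+ livers in Afp, unlike in H19. Igf2bp3, an RNA-binding protein named for the Igf2 mRNA, rose by 1.79 (SE 0.31, limma adjusted p = 0.00579) and its relative Igf2bp2 by 1.25. Gpc3, a fetal glypican, rose by 1.63 (SE 0.60, limma adjusted p = 0.0804), with the genotypes overlapping through Rbpj-/- mouse 3 at -0.67. Zbtb20, which represses Afp after birth, fell by 0.74 (SE 0.24, limma adjusted p = 0.0557), and Lin28a fell by 0.74. With 1 array left out, Gpc3 (limma adjusted p = 0.129 to 0.257 without any mouse but Rbpj+/+ mouse 4 and Rbpj-/- mouse 3), Zbtb20 (0.111 to 0.173 without Rbpj+/+ mouse 3 or 4 or Rbpj-/- mouse 1 or 3), Igf2bp2 (0.122) and Lin28a (0.105, both without Rbpj-/- mouse 1) did not pass.

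Among genes that set or keep DNA methylation and chromatin at imprints, 7 of 17 tested passed, or 41.2% beside 34.2% of all tested genes, with 4 that rose and 3 that fell. Uhrf1, which guides the maintenance methyltransferase to newly copied DNA, rose by 3.30 (SE 0.40, limma adjusted p = 0.00145). Hells, a remodeller needed for DNA methylation, was well above background in no Rbpj+/+ liver. With Rbpj+/+ values raised to the lowest detected signal its increase was 2.82-fold (limma adjusted p = 0.0201). After normexp background correction its log2 difference was 0.10 (limma adjusted p = 0.675). Ezh2 rose by 1.17 and Dnmt1, the maintenance enzyme, by 0.72 (limma adjusted p = 0.0852). The 3 that fell were the demethylating enzymes Tet1 and Tet2 and the methyltransferase Dnmt3a, by 1.12, 0.75 and 0.60. Ctcf, the factor that insulates Igf2 from its enhancers at the H19 locus, and Zfp57, which protects imprints, did not pass (limma adjusted p = 0.61 and 0.511). With 1 array left out, Dnmt1 (limma adjusted p = 0.156 to 0.257), Dnmt3a (0.114 to 0.221), Tet1 (0.104 to 0.129) and Tet2 (0.102 to 0.161) did not pass, each without Rbpj+/+ mouse 3 or Rbpj-/- mouse 1 or 2 and some without further mice.

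**Figure D4:**
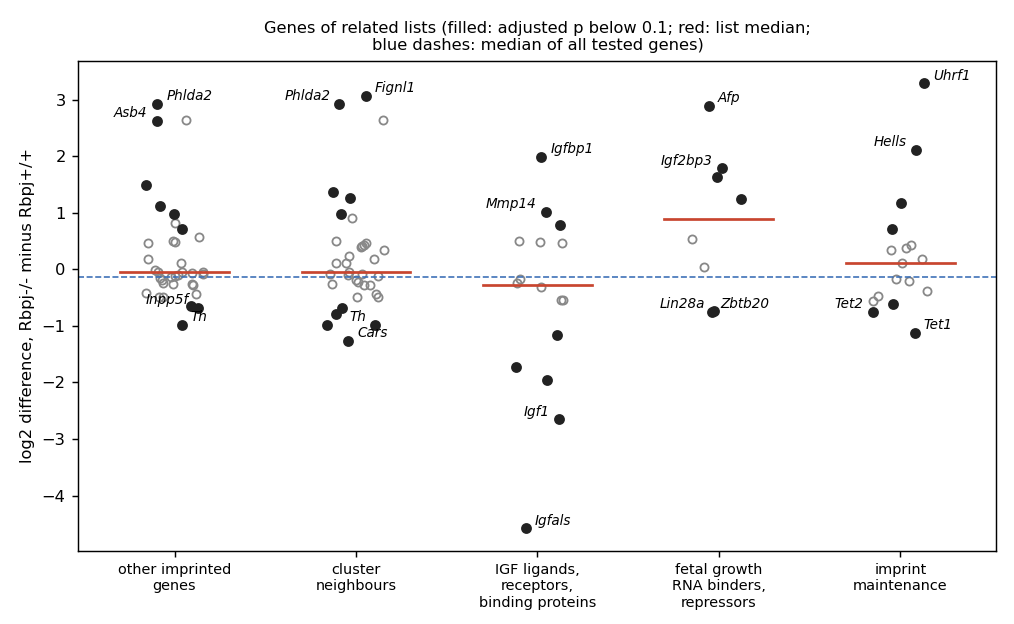
The log2 difference, Rbpj-/- minus Rbpj+/+ (vertical axis), of each tested gene of 5 related lists (horizontal axis, spread sideways for legibility), filled where the adjusted p was below 0.1 and open otherwise, with a red line at each list's median and blue dashes at the median of all tested genes, -0.13. The medians of the other imprinted genes and of the cluster neighbours, lists that share genes, lie at -0.05 and -0.04. The named points are among those with the largest differences in each direction, from Igfals at -4.58 to Uhrf1 at 3.30.

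Markers of other cell types differed between the same livers, and their part in the values above was not tested. The summed level of 7 proliferation markers, in multiples of the array's 75th percentile, was 4.2 to 16.1 in the Rbpj+/+ and 36.2 to 71.6 in the Rbpj-/- livers, and 7 of 7 rose. Macrophage markers rose in 5 of 6 (98.3 to 131 against 350 to 462) and stellate cell and fibroblast markers in 8 of 10 (136 to 210 against 268 to 339). Endothelial markers rose in 3 and fell in 1 of 6 (51.3 to 74.0 against 81.3 to 128). The fall, of Kdr, was called in 16 of 19 settings. It was not called without Rbpj+/+ mouse 1 (-0.14) or Rbpj+/+ mouse 4 (0.03) or with the series' own values (0.10). The probe that stands for a gene is picked anew in each setting, so these values can be those of another Kdr probe. The rise of Tek was called in 11 of 18 settings. Of 6 cholangiocyte markers, Spp1 and Sox9 rose and 4 did not pass (3.69 to 4.30 against 4.74 to 11.5). Sox9 overlapped between genotypes (limma adjusted p = 0.0842) and was called in 10 of 19 settings, not without Rbpj+/+ mouse 1, 2 or 3 or Rbpj-/- mouse 1 or 2 (0.115 to 0.26). Of 4 erythroid markers 1 rose and 1 fell (41.5 to 65.7 against 8.17 to 26.1). Hepatocyte markers fell in 5 of 8 and none rose (3330 to 4370 against 2070 to 2460). These falls depended on the scaling: after quantile normalization the differences of Alb, Serpina1a and Apoa1 were -0.10, -0.10 and -0.43 (limma adjusted p = 0.593, 0.612 and 0.21), and with the series' own values, where they were -0.09, -0.09 and -0.43, that of Apob turned to 0.60 (limma adjusted p = 0.452). After normexp correction 2 of the 8, Tat and Cps1, passed as higher, by 0.70 and 1.25 (limma adjusted p = 0.0539 and 0.0355). The 8 hepatocyte markers, which define the tissue, were well above background in every liver. In Rbpj+/+ mouse 4 the proliferation sum was 7.31, the macrophage sum 127 and the hepatocyte sum 3710, all inside the range of the other Rbpj+/+ livers. Its cholangiocyte sum of 4.3 and erythroid sum of 65.7 were the highest of its genotype.

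The tested genes whose 7 values, centred on the Rbpj+/+ mean, lay closest to those of H19 probe 7 were Gipc2, Igdcc4 and Lrtm2, with a mean absolute distance over the 7 animals of 1.08, 1.12 and 1.14 log2 units. Gipc2, a scaffold protein that was well above background in 2 of 4 Rbpj+/+ livers, measured -3.20, -5.02, -4.96 and -2.55 in the Rbpj+/+ livers and 2.59, 2.81 and 2.58 in the Rbpj-/- livers. Igdcc4, an immunoglobulin-type membrane protein, was well above background in no Rbpj+/+ liver and measured 2.87, 2.83 and 1.62 in the Rbpj-/- livers. With Rbpj+/+ values raised to at least the lowest detected signal its increase was 53-fold. Lrtm2, a leucine-rich membrane protein, was well above background in 1 of 4 Rbpj+/+ livers. It measured -4.63, -5.35, -2.79 and -2.75 against 3.27, 3.60 and 3.38. No such ranking was made for Igf2, which was not read.

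The 5′ windows of the members were searched for the core letters of RBPJ (TGGGAA), PLAGL1 (GGGGCCCC) and TEAD (GGAATG) on both strands, as a description of sequence only. RefSeq windows on GRCm38.p6, from 250 bases before to 50 after a gene start, were at hand for 8 of the 10 members in 15 windows. None was at hand for H19 or Cdkn1c, so these genes were not searched. The RBPJ letters stood in 25.6% of all 32851 windows, the PLAGL1 letters in 1.08% and the TEAD letters in 14.7%. The RBPJ letters were found in windows of Meg3, Mest and Igf2, which are printed in the sense of the gene with the match in capitals (TTCCCA is the same motif on the other strand).

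Meg3, chr12:109545153-109545182: ggaaatcctagcTTCCCAagggtggtcttg
Meg3, chr12:109545148-109545168: caaTGGGAAatcctagcttcc
Mest, chr6:30737810-30737839: ggcattaacacaTGGGAAggctttcttcac
Igf2, chr7:142661364-142661393: ttgggccgctcaTTCCCAggaccgcaaatc
Igf2, chr7:142661412-142661441: ttcgccacagttTTCCCAtttatggagtcg
Igf2, chr7:142666846-142666875: gtgtgaatggggTGGGAAgcagctagagag

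The pair at the second Meg3 start lies 247 and 233 bases before it, and the Igf2 match at chr7:142661364-142661393 overlaps a TEAD match. Peg3 held the single PLAGL1 match, 201 bases before its start, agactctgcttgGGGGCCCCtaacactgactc at chr7:6730601-6730632. TEAD letters also stood in windows of Peg3 and of 3 Igf2 starts. No window of Igf2r, Dlk1, Plagl1 or Grb10 held any of the 3 motifs. The share of G and C ran from 49.7% to 80.0% in the 15 windows beside a median of 52.7% over all windows. A match is a run of letters and was not tested for binding.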

How the data were processed

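Total RNA of whole liver, labelled with Cy3, was hybridised by the authors to a mouse 8x60K array and read with Agilent Feature Extraction 10.7.3.1. The deposited scanner files hold, per spot, the processed intensity (background subtracted and detrended), the mean signal and the local background, and the probe coordinates are on mm9. The authors' processed values are deposited as log2 values centred on each probe's median. They correlated with quantile-normalized, median-centred values at r = 1.00 on every array and at 0.776 to 0.876 with percentile-shifted ones, and were used as an alternative only.

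From the scanner files, control spots and spots called non-uniform or population outliers were left out (146 probe values over the 7 arrays), log2 intensities were averaged over the spots of a probe, and the 75th percentile of the array was subtracted. No constant was added. A probe counted as detected where over 50% of its spots were positive, significant and well above background. Probes detected on all arrays of a genotype entered limma 3.58.1 (R 4.3.3), whose p-values were adjusted together after Benjamini and Hochberg and called at 0.1. The fit was tested on simulated data with independent normal noise, which hold no outlying animal such as Rbpj+/+ mouse 4 was for H19. Standard errors of members come from that fit. A gene stands for its brightest tested probe, picked anew under each alternative, so that its probe can change between them. The series' own values are centred on each probe, so brightness does not guide the pick there. For a probe dark in all Rbpj+/+ livers, values below the lowest detected signal of their array were raised to it before the fold was taken. This fold depends on the background correction and can be smaller under another. Of 55681 probes 28325 were named by accession, 2214 by symbol, 174 by synonym and 24968 keep the array's name.

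Animals were grouped by the genotype in the labels, which give no sex. The number of arrays, 4 and 3, limits the precision. No spot was saturated. The values of 1 of the 35 tested cluster neighbours and the sequence of 1 of the 3 Meg3 probes are not reported here. The members, the related lists, the markers and the motifs were chosen with earlier results of these data known. Named were all members, of each list the 2 called genes with the largest difference in each direction, called genes in a member's cluster and the 3 genes most like H19, and other list genes were named after their values were seen. Tried besides were a normexp correction (offset 50), other scalings, other filters, other variance models, an adjusted p of 0.05, the mean of a gene's probes and each array left out in turn.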

Additional observations from a re-analysis of the deposited data

How the results depend on the processing

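The member probes that passed numbered 13, and 8 with no filter on dim probes or with detection required on all 7 arrays. They ran from 9 (without Rbpj-/- mouse 2) to 15 when arrays were left out in turn. With no filter, where 55681 probes share the adjustment, calls over all probes were 2038, and those in the lists were 3 of the other imprinted genes, 4 cluster neighbours, 3 IGF genes, 2 fetal growth genes and 2 imprint maintenance genes. Normexp background correction called 14 other imprinted genes, and an adjusted p below 0.05 called 4 imprint maintenance genes. Leaving out arrays, the calls over all probes ran from 4673 (without Rbpj-/- mouse 2) to 9019 (without Rbpj+/+ mouse 2), with 5468 without Rbpj+/+ mouse 3 and 5603 without Rbpj-/- mouse 1. The other imprinted genes ran from 6 to 13, the cluster neighbours from 7 to 13, the IGF genes from 6 to 10, the imprint maintenance genes from 3 (without Rbpj+/+ mouse 3 or Rbpj-/- mouse 2) to 8, with 4 without Rbpj-/- mouse 1, and the fetal growth genes from 3 (without Rbpj-/- mouse 1) to 5, with 4 without Rbpj+/+ mouse 3. No direction of a called member reversed under these alternatives. Plagl1 probes 1 and 2, not called before, both passed as lower after normexp correction (-0.41 and -0.375). Of these probes, 1 passed as lower under quantile normalization, with array weights in limma, with the series' own values and without Rbpj+/+ mouse 1. The H19 differences ran from 5.04 to 9.52. Normexp correction gave 5.07, 5.04 and 5.05 for H19 probes 2, 3 and 4, 0.75 and 1.39 for Mest probes 2 and 3 and 0.51 for Igf2r. Of the called genes named, Hells (0.10), Igf1r (0.24), Tnfrsf23 (0.27), Dnmt1 (0.33), Dnmt3a (-0.33), Tek (0.06) and Ikzf1 (-0.13, reversed) did not pass under it. Quantile normalization or the series' own values also ended the calls of Gpc3, Igfbp5, Lin28a and Utrn (both), and of Irs4 and Plg (the latter values only). Signals near background, as for Igf2, Dlk1 and H19 probe 1, set the limit of what could be read. The median of the other imprinted genes, -0.05, was 0.02 to 0.12 under other scalings and background corrections, that of the cluster neighbours, -0.04, was 0.01 to 0.11, and that of the IGF genes, -0.27, was -0.19 to 0.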
